A study of Homo sapiens with 16 samples.

Results

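RUNX1 encodes a DNA-binding transcription factor of blood formation and is a frequent target of mutations and translocations in leukaemia. Its contact map was read from Hi-C of K562, an established human leukaemia line of erythroid and megakaryocytic character. In build hg19 the gene was taken as chr21:36.160-36.422 Mb, on the minus strand, and every 20 kb bin over it was used, with its contacts inside chr21:35-37.5 Mb. These are 14 of the 137198 bins of chromosomes 1 to 22 and X that were present in all 8 libraries, and the window around them is 2.5 Mb long, with every bin present. Formaldehyde-fixed K562 chromatin was cut in nuclei with HindIII for 0.25, 1, 3 or 12 h before ligation, and each time has 2 libraries. The labels name no other treatment. The cells are 1 line, and nothing in the labels says whether the 2 libraries of a time came from separate cultures, so p-values measure only the spread between these libraries. The study varied the cutting time to find the domain boundaries that the enzyme reaches first. The comparisons here ask how the coverage, the contacts inside bins and the contacts between bins of RUNX1 differed between the times.

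RUNX1 is transcribed from a pair of promoters that lie far apart. The distal promoter, P1, starts the long isoform of definitive blood cells, and the proximal promoter, P2, starts a shorter form that is found early in development and in many tissues. The first intron between them holds known blood enhancers, and the downstream part of the gene encodes most of the protein, including the Runt domain that binds DNA. In Hi-C, DNA ends close together in the nucleus are joined and counted as contacts. A contact inside a single bin, called a self-contact here, joins ends at short range and includes fragments that were joined again to their neighbours.

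Because the gene runs from right to left on the map, the P1 bin is the upper one, chr21:36420001-36440000. The P2 bin is chr21:36260001-36280000. The 7 first-intron bins between them cover chr21:36280001-36420000, and the 5 downstream gene bins, chr21:36160001-36260000, reach from next to P2 to the 3′ end. The 3′ flank of 58 bins lies below the gene and the 5′ flank of 53 bins above it. Neighbouring genes are not named, since no annotation of hg19 was used here.

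The P2 promoter is shown because its bin has the highest coverage of the gene and the most one-sided contacts. The 250 bases before the start of the RefSeq transcript are at chr21:34888700-34888949 of GRCh38.p14, minus strand, and the distance of that start from the gene's 5′ end falls in the same hg19 bin as P2. Capitals mark CCAAT and its reverse complement ATTGG.

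RUNX1 P2 promoter: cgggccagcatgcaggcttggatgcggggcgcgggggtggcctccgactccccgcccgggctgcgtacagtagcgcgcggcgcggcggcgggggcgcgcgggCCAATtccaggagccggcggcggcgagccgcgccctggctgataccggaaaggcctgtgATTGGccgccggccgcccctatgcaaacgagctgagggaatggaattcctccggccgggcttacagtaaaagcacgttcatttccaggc

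CCAAT, read on both strands, occurred 2 times, and 32% of 35116 RefSeq promoter windows of the same length hold at least 1, while 97.1% hold 2 or fewer. The window has 32 CG dinucleotides, against a median of 11. AAGCTT, the site cut by HindIII, was not found in these bases, and 5.02% of the windows hold it. The RUNX core motif TGTGGT was not found on either strand, and 11% of the windows hold it. Nor was the GATA motif, spelled AGATAA, which 9.17% of the windows hold on one strand or the other. These matches describe letters and were not tested as binding sites.

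The libraries held 62777251 to 176412222 contacts, and within each replicate number depth was higher at each longer time. The shallowest library was 0.25 h replicate 2 and the deepest 12 h replicate 1. Contacts with other bins, summed over the 14 RUNX1 bins, came to 16473 to 50996 per library. A contact that joins different RUNX1 bins is counted in this sum once for each bin. Of all contacts off the diagonal in the genome, 86.4% to 87.9% joined bins of the same chromosome. The median bin had a self-contact share of 7.32% and 7.81% at 0.25 h and of 4.27% and 4.20% at 12 h, so depth and the share of self-contacts moved with the cutting time across the whole genome. Their part in the results below was not tested, except where thinned libraries are named.

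The P2 bin had the highest coverage of the 14. Its contacts with other bins, relative to the median bin of the library, were 3.57 and 3.91 at 0.25 h, 3.67 and 3.60 at 1 h, 3.55 and 3.70 at 3 h, then 3.17 and 3.11 at 12 h. Both 12 h libraries lay below all 6 others. Both 0.25 h libraries lay above both 12 h libraries in 4 of the 14 bins, beside 39.4% of all bins. The mean of P2 over the libraries was 3.54, and 99.3% of the 137198 bins lay below it. The neighbour of P2 on the 3′ side, chr21:36240001-36260000, followed at 3.05, and the first-intron bin chr21:36360001-36380000 at 2.82. The P1 bin was close to an ordinary bin, at 1.32 and 1.43, 1.31 and 1.28, 1.36 and 1.33, and 1.35 and 1.30 in the same order of times, and its groups overlapped. Coverage was lowest, at 0.816, in chr21:36200001-36220000 of the downstream gene. The number of HindIII sites in a bin, which can affect such counts, was not analysed here.

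**Figure D1:**
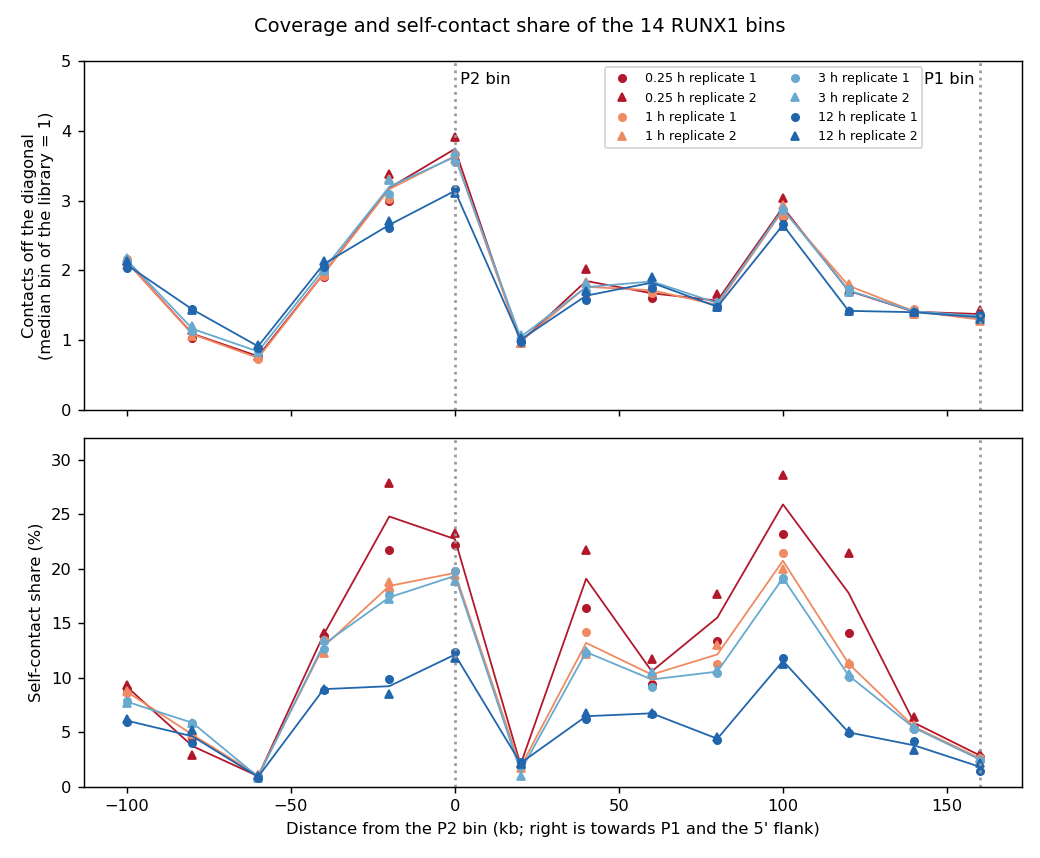
Contacts off the diagonal relative to the median bin of each library (top) and self-contact share in percent (bottom) for the 14 RUNX1 bins, against distance from the P2 bin in kb; points are single libraries, lines the means of the 2 libraries of a time. The P2 bin has the highest coverage, and both 12 h self-contact shares lie below both of 0.25 h at 11 of 14 bins, beside 78.0% of all bins; at P2 they are 12.4% and 11.8% against 22.2% and 23.2%.

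Coverage was tested as a share of the library's contacts between bins, with self-contacts left out of the total. At 0.25 h against 12 h it was higher in 3 of the 14 bins and lower in 4. The other 7 did not pass the test (limma over all bins, Benjamini-Hochberg adjusted p under 0.05). Over all bins 20.9% were called higher and 35.0% lower. The 3 higher bins were P2, with a log2 difference of 0.20 ± 0.04 (SE, limma adjusted p = 0.000193), its 3′ neighbour chr21:36240001-36260000, with 0.21 ± 0.05, and the first-intron bin chr21:36380001-36400000, with 0.21 ± 0.04. The 4 lower bins were led by chr21:36180001-36200000 in the downstream gene. Relative to the median bin, its coverage was 1.03 and 1.15 at 0.25 h and 1.45 and 1.43 at 12 h. As a share of the library's contacts between bins, the scale of the test, its log2 difference was -0.45 ± 0.05 (limma adjusted p = 2.39e-07). The others were chr21:36200001-36220000, at -0.30, chr21:36220001-36240000, at -0.15, and the first-intron bin chr21:36320001-36340000, at -0.18. The P1 bin had a log2 difference of 0.00 ± 0.05 (limma adjusted p = 0.967). With the replicate number as a block, 4 bins were higher and 4 lower, beside 22.9% and 37.5% of all bins, and the added call was the first-intron bin chr21:36300001-36320000, at 0.12 (limma adjusted p = 0.0102).

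Between neighbouring times, coverage calls were made only from 3 to 12 h. From 0.25 to 1 h and from 1 to 3 h limma called none of the 14 bins and none of all 137198 bins. It gave an unadjusted p under 0.05 to 13629 and 8048 of all bins, 0 and 2 of them over RUNX1. At 3 h against 12 h it called 3 RUNX1 bins higher and 2 lower, beside 14.3% and 24.2% of all bins. Scaling by median-of-ratios size factors replaced the total of contacts between bins in another fit. It changed the split over all bins from 28639 higher and 47981 lower to 38409 and 38083. It gave 5 higher and 4 lower RUNX1 bins. Without 0.25 h replicate 1, 6 RUNX1 bins and 20.2% of all bins were higher, and without 12 h replicate 2, 2 and 25.6% were lower. With only contacts between chromosomes no RUNX1 bin was higher and 2 were lower, beside 2.54% and 3.7% of all bins.

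In the P2 bin the self-contact share was 22.2% and 23.2% at 0.25 h, 19.8% and 19.4% at 1 h, 19.8% and 18.8% at 3 h, then 12.4% and 11.8% at 12 h. Both 12 h libraries lay far below the rest, and both 0.25 h libraries above. In the P1 bin the share was 2.72% and 3.03% at 0.25 h and 1.45% and 2.22% at 12 h, on 27 to 53 self-contacts per library. Over the 14 bins the mean share ran from 0.957% in chr21:36200001-36220000 to 19.3% in chr21:36360001-36380000, and 97.1% of all bins lay below the latter. Bins of high coverage had high self-contact shares: r was 0.907 and Spearman's rho 0.881 over the 14 bins, which share the libraries, and r was 0.567 over all bins.

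Against 12 h, the ratio of self-contacts to other contacts was higher at 0.25 h in 10 of the 14 bins and lower in none, and 4 bins did not pass (limma, adjusted p under 0.05). The background was high, since 64.7% of all bins were called higher and 0.147% lower. By role, 6 of 7 first-intron bins, 3 of 5 downstream gene bins and the P2 bin were higher. The P1 bin missed the threshold, with a log2 difference of 0.70 ± 0.29 (SE, limma adjusted p = 0.0590). It passed without 12 h replicate 2, at a log2 difference of 1.01 and an adjusted p of 0.0352.

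The size of the difference varied along the gene. It was largest in the first-intron bin chr21:36380001-36400000, where the share was 14.1% and 21.4% at 0.25 h and 4.90% and 5.09% at 12 h. The log2 difference of the ratio was 2.01 ± 0.20 (limma adjusted p = 4.07e-05), and the median over all bins of like coverage was 0.91. The first-intron bins chr21:36340001-36360000, at 1.98, and chr21:36300001-36320000, at 1.75, came next, and then chr21:36240001-36260000 beside P2, at 1.69. Without 0.25 h replicate 2, the difference at chr21:36340001-36360000 was the largest of the 14. The P2 bin, at 1.09 ± 0.12 (limma adjusted p = 5.06e-05), was near the median of 1.00 for its coverage class. One bin without a call besides P1 was chr21:36280001-36300000, next to P2 in the intron, at -0.07 ± 0.37 (SE). The others were chr21:36180001-36200000, at -0.33 ± 0.24, and chr21:36200001-36220000, at 0.17 ± 0.40, in the downstream gene. In this order they held 12 to 47, 21 to 141 and 5 to 17 self-contacts per library. A missing call on such counts does not show that a bin was unchanged. Whether bins differed from each other in their change was not tested. Between 0.25 and 1 h and between 1 and 3 h limma called none of the 14 and none of all 137198 bins. It gave an unadjusted p under 0.05 to 6 and 0 RUNX1 bins, and to 27155 and 4676 of all bins. At 3 h against 12 h it called 10 of the 14 higher, beside 56.8% of all bins. Without 0.25 h replicate 1, the log2 difference at chr21:36180001-36200000 was -0.64, on 21 self-contacts in the only 0.25 h library left. Without 0.25 h replicate 2 or 12 h replicate 2 the first-intron bin chr21:36400001-36420000 lost its call, with adjusted p-values of 0.0520 and 0.105.

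As a whole, the 14 bins had a self-contact share of 14.8% and 18.2% at 0.25 h, 13.2% and 13.1% at 1 h, 12.4% and 12.4% at 3 h, then 7.33% and 7.16% at 12 h. No library of one time overlapped another time. The median bin of the genome fell in the same order, also without overlap. It had 7.32% and 7.81% at 0.25 h, 6.87% and 6.92% at 1 h, 6.54% and 6.46% at 3 h, then 4.27% and 4.20% at 12 h. The means of the 14 RUNX1 bins were 16.5% ± 2.40 (SD, n = 2) at 0.25 h and 7.25% ± 0.12 (SD, n = 2) at 12 h. Against log2 hours, rho (Spearman) of the locus was -0.98 (exact permutation p = 0.000794, two-sided, the smallest the 8 libraries allow, and 0.00794 after adjustment over 10 locus measures). The linear correlation (Pearson) had r of -0.94 (exact permutation p = 0.000794). With the 0.25 h libraries left out r was -0.94, and with the 12 h libraries left out -0.84.

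The share of RUNX1 contacts, self-contacts left out, that stayed on chromosome 21 was below the genome's. It was 81.2% and 80.5% at 0.25 h, 80.4% and 79.5% at 1 h, 80.7% and 79.6% at 3 h, then 78.4% and 77.9% at 12 h, where the genome had 86.4% to 87.9%. The 12 h libraries lay below the 6 others. Other bins of chromosome 21 were not compared, so a share below the genome's is not shown to be particular to RUNX1. In 13 of the 14 bins both 0.25 h libraries lay above both 12 h libraries, and 33.3% of all bins did so. The trend of the whole locus did not pass the adjusted threshold, with rho of -0.73 (exact permutation p = 0.0548, adjusted 0.110). Of the contacts on chromosome 21, 78.1% and 78.1% at 0.25 h and 79.7% and 79.2% at 12 h ended inside the 2.5 Mb window. Mean coverage of the locus, between 1.77 and 1.95 times the median bin, had rho of -0.39 (exact permutation p = 0.361, adjusted 0.451).

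**Figure D2:**
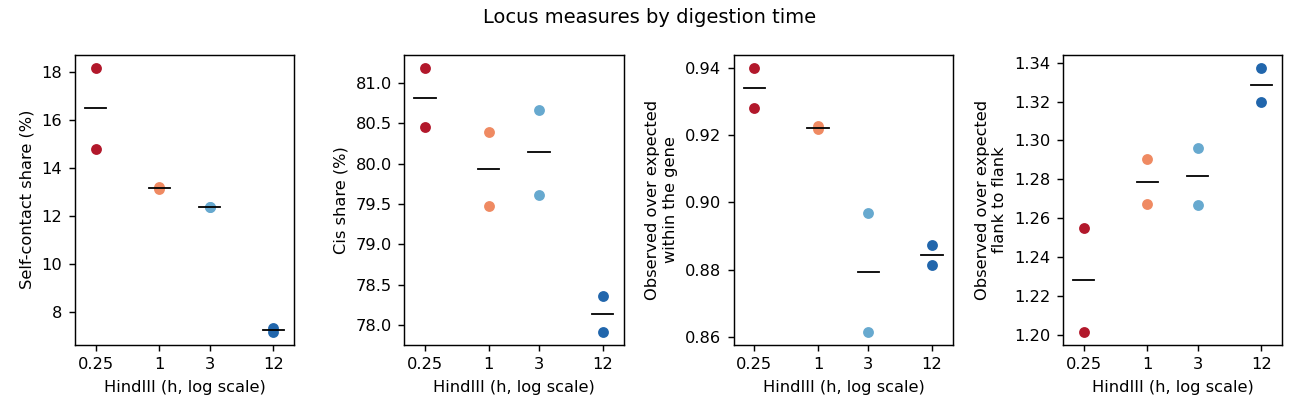
Self-contact share, share of contacts within chromosome 21, and observed over expected contacts within the gene and between its flanks, for each library against HindIII time in hours on a log scale; bars are means of 2 libraries and the vertical axes do not start at 0. The self-contact share is lower at every later time, from a mean of 16.5% to 7.25%, while the other 3 measures span narrow ranges.

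Contacts between bins were compared as balanced contacts over the mean of the same library at the same distance on chromosome 21, so that 1 means an average pair. P2 faced the 5′ side. Of the 60 bins 40 kb or more on the 5′ side, all 60 had a mean observed over expected above 1, with a median of 1.90 and a range of 1.14 to 3.80. Of the 62 bins on the 3′ side, all 62 had a mean below 1, with a median of 0.459. In 41 bins of the 5′ side every library was above 1, and in 44 of the 3′ side every library was below 1. This pattern was noticed in the map after the data were examined and is given as a description.

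**Figure D3:**
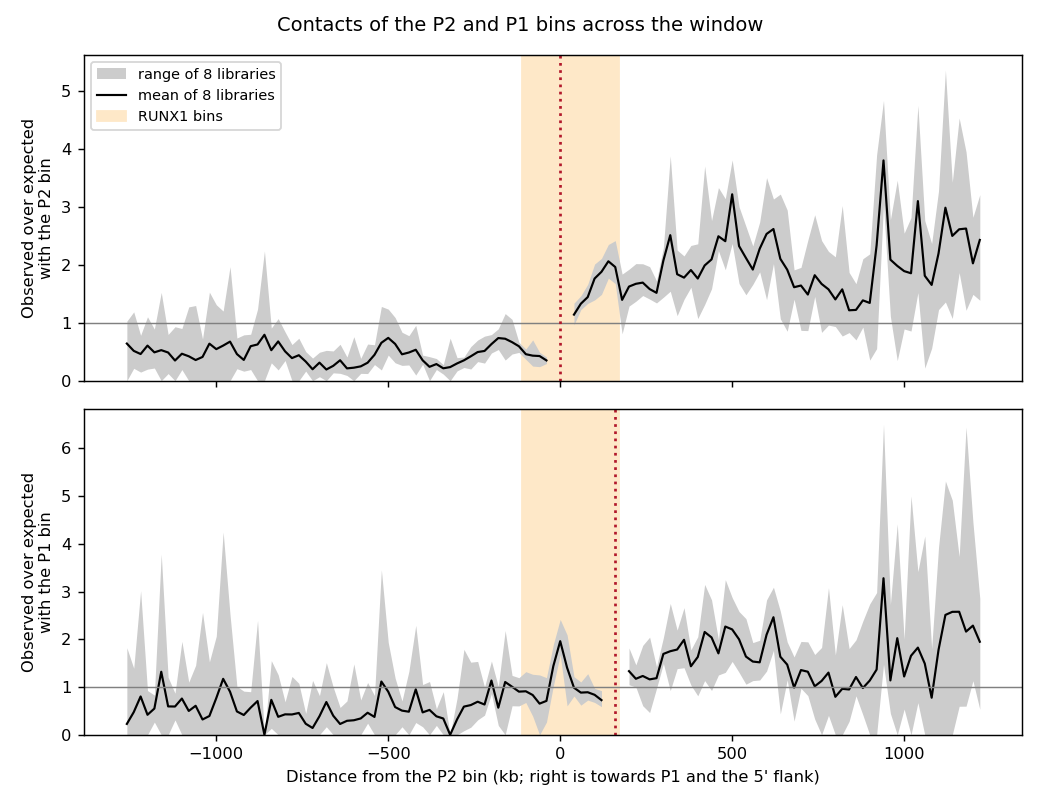
Observed over expected contacts of the P2 bin (top) and the P1 bin (bottom) with each bin of the window, against distance from the P2 bin in kb; the line is the mean of 8 libraries, grey their range, and shading the 14 RUNX1 bins. P2 lies below 1 at all 62 bins of its 3′ side and above 1 at all 60 of its 5′ side, and the P1 with P2 value, 1.96, is the highest on the 3′ side of P1 but close to the median of 1.90 on the 5′ side of P2.

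By segment, P2 contacts with the first intron had an observed over expected of 1.19 and 1.22 at 0.25 h, 1.24 and 1.21 at 1 h, 1.24 and 1.16 at 3 h, then 1.15 and 1.2 at 12 h, on 7000 contacts in all. With the 5′ flank P2 had a mean of 1.94, between 1.89 and 2.03 in single libraries. With the downstream gene bins it had 0.405, between 0.372 and 0.425, and with the 3′ flank 0.481, between 0.442 and 0.512. In every library both values on the 5′ side of P2 were above both on its 3′ side. The 0.25 and 12 h libraries overlapped in 3 of these 4 segments, and with the downstream gene bins they were 0.402 and 0.411 against 0.412 and 0.418. P1 had 1.49 with the 5′ flank and lower values on its 3′ side, with 0.846 for the first intron, 0.927 for the downstream gene bins and 0.601 for the 3′ flank.

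The same asymmetry can be expressed for each bin as the log2 ratio of balanced contacts on the 5′ side to those on the 3′ side, from 40 kb to 1 Mb. P2 had 2.01 and 1.85 at 0.25 h, 2.02 and 1.91 at 1 h, 1.83 and 1.96 at 3 h, then 1.81 and 2.03 at 12 h. The times overlapped. Its mean of 1.93 was larger in size than that of 99.7% of 127723 bins in the genome. All 14 RUNX1 bins leaned to the 5′ side, from 0.40 in chr21:36380001-36400000 to the value of P2. The first-intron bin next to P2 had 1.48, the 3′ neighbour of P2 1.04 and P1 0.91. The lean was not confined to the gene, with 0.82 in the nearest 3′ flank bin and 0.74 in the nearest 5′ flank bin. Values below 0 were first met 240 kb from P2 on the 3′ side, at -0.27, and 300 kb on the 5′ side, at -0.12. No test of time was made on this ratio.

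**Figure D4:**
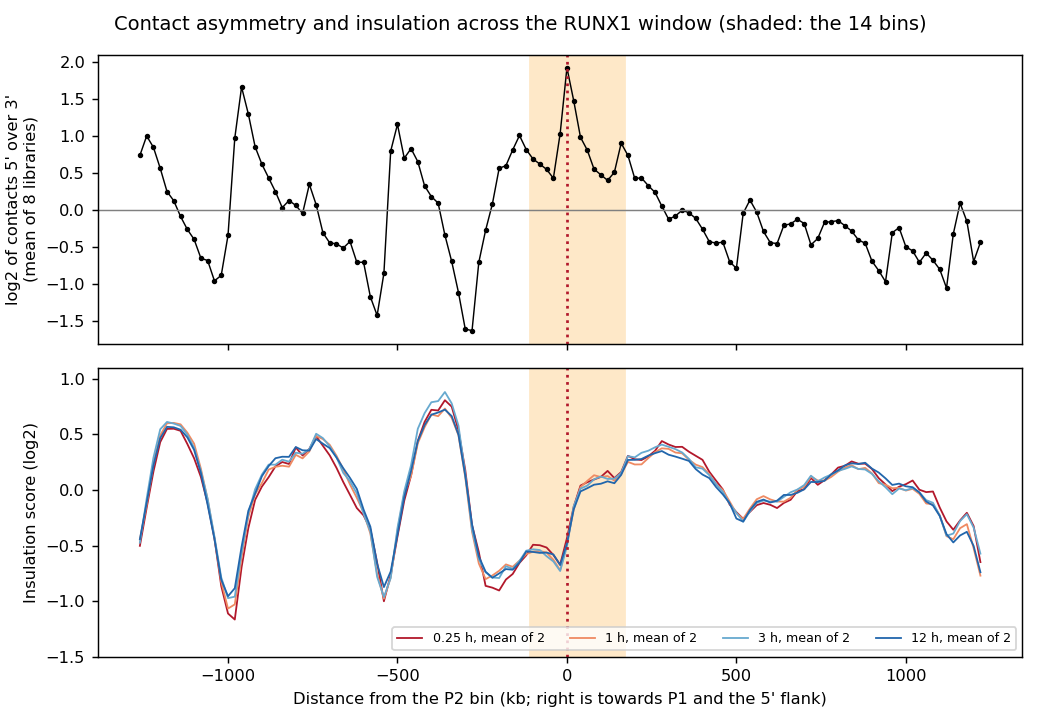
Log2 ratio of balanced contacts 5′ over 3′ of each bin (top, mean of 8 libraries) and insulation score (bottom, mean of 2 libraries per time), against distance from the P2 bin in kb; shading marks the 14 RUNX1 bins. The ratio peaks at P2 at 1.93, and the insulation curves of the 4 times rise together across P2.

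The P1 and P2 bins, 160 kb apart, met more often than average pairs, but P1 did not stand out among the bins on the 5′ side of P2, whose median was 1.90. Their observed over expected was 1.68 and 2.42 at 0.25 h, 1.83 and 2.39 at 1 h, 1.81 and 2.05 at 3 h, then 1.68 and 1.83 at 12 h, on 39 to 83 contacts per library. All 8 libraries were above 1, and replicate 2 was above replicate 1 at every time. At 0.25 h against 12 h the log2 difference was 0.21 ± 0.27 (SE, limma adjusted p = 0.933). Over squares of 3 bins around both promoters the mean was 1.74 at 0.25 h and 1.46 at 12 h, with rho of -0.63 (exact permutation p = 0.110, adjusted 0.184). Without 1 h replicate 2, that rho was -0.92 with an adjusted p of 0.0317.

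P1 and the bin of the 3′ end, 260 kb apart, had a mean of 0.911, with libraries on both sides of 1. Their observed over expected was 0.739 and 1.08 at 0.25 h, 0.677 and 1.08 at 1 h, 1.32 and 0.926 at 3 h, then 0.736 and 0.734 at 12 h, on 6 to 20 contacts per library. The log2 difference at 0.25 h against 12 h was 0.33 ± 0.32 (SE, limma adjusted p = 0.904). P2 and the 3′ end, 100 kb apart, met less often, with 0.457 and 0.507 at 0.25 h, 0.394 and 0.390 at 1 h, 0.546 and 0.368 at 3 h, then 0.460 and 0.538 at 12 h. All 8 libraries were below 1. The log2 difference was -0.03 ± 0.29 (limma adjusted p = 0.993).

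Across the window, 1645 pairs have a RUNX1 bin, and 455 of them held at least 10 contacts per library on average and were tested. At 0.25 h against 12 h limma called 0 of the 455 and 0 of 1279173 pairs in the genome (percent called 0.0), and an unadjusted p under 0.05 was reached by 25 RUNX1 pairs, or 5.49%, beside 5.94% of all pairs. The middle 95% of the 455 log2 differences ran from -0.90 to 0.71. A model of the spread on the mean contacts of a pair, chosen after seeing the data, called 1440 pairs in the genome (0.113%) and 1 with a RUNX1 bin. That pair joined the neighbouring bins chr21:36200001-36220000 and chr21:36220001-36240000 of the downstream gene, with an observed over expected of 2.27 and 3.24 at 0.25 h, 1.91 and 2.23 at 1 h, 1.70 and 1.73 at 3 h, then 1.48 and 1.39 at 12 h. Its libraries fell into separate ranges by time, and the log2 difference was 0.93 ± 0.13 (SE, limma adjusted p = 0.000570, against 0.839 without that model).

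Contacts among the 14 RUNX1 bins had an observed over expected of 0.940 and 0.928 at 0.25 h, 0.922 and 0.923 at 1 h, 0.897 and 0.862 at 3 h, then 0.887 and 0.881 at 12 h. The 3 and 12 h libraries lay below the 0.25 and 1 h libraries. The Spearman correlation with log2 hours was -0.88 (exact permutation p = 0.0103, adjusted 0.0344). The adjusted p rose to 0.0579 when times were permuted within replicate number, and in the first run, in 50 kb bins, rho was -0.39 with an adjusted p of 0.361. With 1 library left out, the adjusted p missed the threshold in 4 of 8 runs, without either library of 0.25 h or of 1 h (exact permutation, up to 0.127). It also missed it without balancing (0.219) and with the expected from all autosomes (0.0516). The mean was 0.905, and 22.8% of 118549 runs of 14 neighbouring bins in the genome were below it.

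Contacts across P2 were fewer than on either side of it. The first-intron bins had 0.989 among themselves and the downstream gene bins 1.04, but the pairs between those groups had 0.651, with 0.615 to 0.702 in single libraries. The downstream gene bins among themselves had 1.11 and 1.27 at 0.25 h and 0.969 and 0.934 at 12 h, without overlap. For the first-intron bins among themselves, and for the pairs between those groups, the 0.25 and 12 h libraries overlapped. These differences were not tested, since 2 against 2 libraries allow no exact permutation p below 0.333. With the 3′ flank the gene had a mean of 0.603 and with the 5′ flank of 1.45, and neither trend with time passed the test, with rho of -0.29 (exact permutation p = 0.513) and 0.49 (exact permutation p = 0.247), adjusted to 0.571 and 0.353. The flanks met each other across the gene at 1.25 and 1.2 at 0.25 h, 1.27 and 1.29 at 1 h, 1.27 and 1.30 at 3 h, then 1.32 and 1.34 at 12 h. Their Spearman correlation with log2 hours was 0.88 (exact permutation p = 0.0103, adjusted 0.0344), and 0.63 in the first run, with an adjusted p of 0.177. This call too was lost with times permuted within replicate number (adjusted p = 0.0579, exact permutation) and with the expected from all autosomes (0.0661). It was also lost in 5 of 8 runs with 1 library left out, without either library of 0.25 h or of 12 h or without 3 h replicate 2 (up to 0.127).

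**Figure D5:**
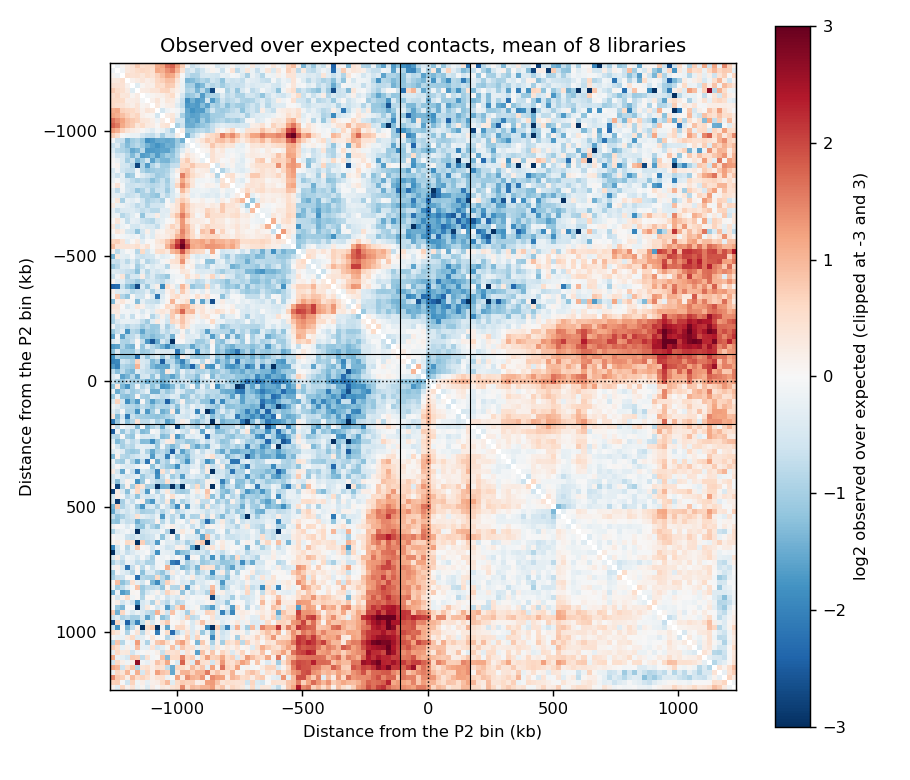
Log2 observed over expected contacts between all pairs of 20 kb bins of the window, mean of 8 libraries, with both axes in kb from the P2 bin; solid lines bound the 14 RUNX1 bins and the dotted line marks P2. A line of raised contacts leaves P2 towards the 5′ side only, and a block joins the 3′ part of the gene and the flank next to it with bins near 1000 kb on the 5′ side, where the downstream gene bins reach a mean of 3.08.

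The downstream gene bins made their strongest long-range contacts far beyond P1. Taken in steps of 200 kb above the gene, their observed over expected was 1.08, 1.75, 2.17, 2.58 and 3.08, so it was higher in each step out to 1000 kb. In the step from 800 to 1000 kb the single libraries ran from 2.66 to 3.35. P2 had 1.73, 2.20, 2.00, 1.76 and 2.24 in the same steps, and the first-intron bins had 1.03, 1.38, 1.29, 1.18 and 1.56. The 6 bins of the 3′ flank next to the gene had more still, with 5.22 from 800 to 1000 kb. These steps were laid out after the map was seen and have no test.

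Ranked by mean observed over expected, all 10 highest of 1579 RUNX1 pairs at 100 kb or more joined a downstream gene bin with a bin between chr21:37180001 and chr21:37420000. The highest had a mean of 5.92 but only 38 contacts in all, with 1.47 to 14.3 in single libraries. The 10 pairs held 19 to 156 contacts, and 7 of them had too few to be tested, so their order is uncertain. The partners chr21:37200001-37220000 and chr21:37380001-37400000 took part in 3 each, and chr21:37180001-37200000 and chr21:37400001-37420000 in 2 each. The first of these is described further, a choice made after its values were seen. Over the 14 RUNX1 bins together chr21:37200001-37220000 had 2.97 and 3.00 at 0.25 h, 3.04 and 3.14 at 1 h, 2.95 and 2.84 at 3 h, then 2.87 and 3.01 at 12 h, and its neighbours on either side had means of 2.12 and 2.06. The 0.25 and 12 h libraries overlapped, and in no library did a neighbour reach the partner. With P2 the mean was 3.80, on 221 contacts, with 3.05 to 4.83 in single libraries. With P1 it was 3.28, on 85 contacts, with 1.48 to 6.50. The partner was above both neighbours in 7 of 8 libraries for P2 and in 5 for P1. Even on the mean it was not above both for the RUNX1 bins starting at 36180001, 36280001, 36340001 and 36400001.

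Insulation scores, which are low where few contacts cross a bin, placed RUNX1 on a slope. The score is the log2 mean of balanced contacts across a bin within 200 kb, over the chromosome mean. In the P2 bin it was -0.39 and -0.48 at 0.25 h, -0.52 and -0.44 at 1 h, -0.50 and -0.52 at 3 h, then -0.50 and -0.47 at 12 h. In the P1 bin it was 0.15 and 0.17 at 0.25 h and 0.11 and 0.16 at 12 h. The nearest boundary, a minimum with a prominence of at least 0.2, was chr21:36040001-36060000, 120 kb beyond the 3′ end between bin starts, at -0.81. On the 5′ side the nearest was chr21:36780001-36800000, 360 kb from the gene and shallower, at -0.27. Inside the gene a minimum of -0.70 at chr21:36240001-36260000, next to P2, had a prominence of 0.165 and so did not count.

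No difference in insulation was called. At 0.25 h against 12 h limma called 0 of the 14 bins and 0 of 134553 bins (percent called 0.0), with 0 and 10650 (7.92%) at an unadjusted p under 0.05. The differences over the 14 bins ran from 0.00 to 0.09. They were 0.05 ± 0.06 (SE, limma adjusted p = 0.859) at P2 and 0.03 ± 0.05 (adjusted p = 0.910) at P1. The boundary 120 kb beyond the 3′ end differed by -0.09 ± 0.06 (limma adjusted p = 0.733). Without balancing, 8 RUNX1 bins were called higher at 0.25 h and none lower, beside 18.2% and 26.4% of all bins.

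Contacts of RUNX1 with other chromosomes went most to chromosome 12. Relative to that chromosome's share of all contacts between chromosomes, the 14 bins had 2.43 and 2.44 at 0.25 h, 2.54 and 2.39 at 1 h, 2.41 and 2.44 at 3 h, then 2.3 and 2.43 at 12 h. Chromosome 17 followed with a mean of 1.55. In windows of 1 Mb, 56 of 131 on chromosome 12 were above 2, and 140 of 2633 elsewhere. The highest was chr12:27000001-28000000, with 9.15, between 6.26 and 11.2 in single libraries, on 274 contacts in all. It was not particular to RUNX1, because chromosome 21 as a whole had 7.17 with that window. The source of these contacts was not tested.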

How the data were processed

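The files list, for each pair of bins, a balanced contact signal as deposited by the authors. HiC-Pro 2.11.1, Bowtie2 2.3.4.1 and hg19 are named in the submitters' processing notes, and the balancing step is not given in the sources used here. The second sequencing run, in 20 kb bins, gave the values, and the first, in 50 kb bins, was an alternative. Each signal value factored into a whole contact number and 2 bin weights, and these recovered contacts were whole within 0.01 for nearly all pairs. Coverage is a bin's contacts with other bins, relative to the library's total of contacts between bins, self-contacts left out. Coverage, the ratio of self-contacts to other contacts, insulation, and balanced contacts over the mean at their distance were tested on the log2 scale. Pairs needed a mean of at least 10 contacts, and 0.5 was added to contact numbers. The tests were made by limma 3.58.1 in R 4.3.3 over all features, all 8 libraries and 4 times, with Benjamini-Hochberg adjustment at 0.05. The 10 locus measures were tested by exact permutation of the times in Python 3.11.15 with scipy 1.17.1.

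On simulated data of the same size, the coverage test found 97.0% of bins changed by 0.5 (log2), the self-contact test 0.5% at 0.5 and 49.5% at 1, the insulation test 63.0% at 0.5, and the pair test 11.0% at 1 and 56.0% at 2. Few features were changed in each simulation, and the spread of contact numbers was assumed. Simulated pairs were neither balanced nor divided by the expected. These rates therefore do not give the power of the fits reported here. Same-numbered libraries deviated together in coverage (correlations of 0.110 to 0.254 over 6 pairs of times), and less in self-contacts (0.0171 to 0.129), insulation or pairs. The main fits, coverage included, ignore this pairing. Fits with the replicate number as a block are given as alternatives. All 14 bins, the pairs among P1, P2 and the 3′ end, called pairs, the 10 highest pairs at 100 kb or more and insulation minima were named by rule. The members and lists were chosen with earlier results of these data known. The position of P2 was taken from background knowledge of the gene.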

Additional observations from a re-analysis of the deposited data

How the results depend on the processing

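Depth limits the pairs, as 455 of 1645 with a RUNX1 bin had enough contacts to test, and HindIII sites per bin were not analysed here. The call of falling self-contacts over the locus held with times permuted within replicate number, in the first run and with each library left out. Balancing and the choice of expected do not enter this measure. Where results moved, the cause was not tested. Coverage calls over all bins went from 76620 of 137198 (55.8%) to 8557 (6.24%) with contacts between chromosomes only and to 15325 of 55271 larger bins (27.7%) in the first run. RUNX1 bins with higher coverage went from 3 to 5 with self-contacts included, with cis contacts only and with median-of-ratios factors (20%, 20.1% and 28% of all bins), and to 0 with contacts between chromosomes (2.54%). Bins with lower coverage went from 4 to 2 with contacts between chromosomes (3.7% of all bins) and to 1 of 6 in the first run (17%). Leaving out 1 library gave 3 to 6 higher and 2 to 4 lower (14.5% to 20.6% and 25.6% to 35.4% of all bins), and 0 to 1 bins with lower self-contacts (0.0503% to 0.821% of all bins). Insulation calls were 0, but 5 with windows of 25 bins and 59982 without balancing, 8 of them over RUNX1, and 0 to 241 with 1 library left out (241 without 0.25 h replicate 1). Pair calls were 0, but 196 without division by the expected, 1440 (1 with RUNX1) with the added model of spread, and 0 to 2323 with 1 library left out (2323 without 0.25 h replicate 1).

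With the replicate number as a block, rho of contacts within the gene stayed at -0.88 and between the flanks at 0.88, with adjusted p of 0.0579 for both (exact permutation). The block gave 82923 coverage calls (60.4% of all bins), 4 RUNX1 bins higher and 4 lower, and 90429 self-contact calls (65.9%), 10 of them over RUNX1. It changed no other call of the locus measures. For contacts within the gene rho was -0.59 without balancing (adjusted exact permutation p = 0.219), -0.88 with the expected from all autosomes (adjusted exact permutation p = 0.0516) and -0.39 in the first run. Between the flanks it was 0.83 with all autosomes (adjusted exact permutation p = 0.0661) and 0.63 in the first run. In the first run rho was -0.83 for the share on chromosome 21, 0.83 for the share inside the window and 0.83 for the gene with its 5′ flank, which all passed. With 1 library left out, rho ran from -0.97 to -0.83 within the gene, 0.83 to 0.97 between the flanks, -0.92 to -0.61 for the share on chromosome 21, 0.61 to 0.92 for the window share, -0.92 to -0.48 for P1 with P2, and -0.055 to 0.48 for P1 with the 3′ end. In these 8 runs the adjusted exact permutation p missed 0.05 in 4 within the gene and in 5 between the flanks (up to 0.127 for both). It passed in 1 run each (0.0317) for the share on chromosome 21, without 3 h replicate 1, for the window share, without 1 h replicate 1, and for P1 with P2, without 1 h replicate 2.

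These log2 differences changed sign, none of them called in the fit of all 8 libraries without a block (with the block, coverage at 36300001 was). Coverage of the P1 bin was 0.019 with cis contacts only, 0.043 with median-of-ratios factors and -0.056 to 0.051 with 1 library left out. The bin starting at 36360001 had -0.090 with contacts between chromosomes. With median-of-ratios factors, the bin at 36160001 had 0.025 and that at 36400001 had 0.00062. With 1 library left out, coverage ran from -0.057 to 0.015 at 36160001, -0.0089 to 0.24 at 36300001 and -0.045 to 0.10 at 36340001, and self-contacts from -0.20 to 0.062 at 36280001. Insulation of the P2 bin was -0.076 with windows of 5 bins and -0.0010 with thinned libraries, and of the P1 bin -0.0095 with windows of 25 bins and -0.020 with thinned libraries. P1 with P2 had -0.018 without division by the expected and -0.058 to 0.47 with 1 library left out. P2 with the 3′ end had 0.15 without balancing and -0.14 to 0.082 with 1 library left out.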
